A study of Mus musculus with 24 samples.

Results

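*Brg1-ECko* embryos, in which the gene of the chromatin remodeller BRG1 is targeted in endothelium, were compared with controls. The data show where their RNA difference in liver sinusoidal endothelial cells (LSECs) was unlike that in the other liver cells. For each gene the *Brg1-ECko* minus control difference was taken in CD146+ LSECs and in the non-EC cells left after CD146 selection, and the non-EC difference was subtracted from the LSEC difference. Here that quantity is called the fraction contrast. It used 12 of the 24 libraries of the series, 3 from each fraction and genotype, and 13381 of 25361 genes, after genes that reached 1 TPM in fewer than 3 of these libraries were dropped. TPM is a length-corrected share of the reads of a library, which lets genes be compared with each other, and differences are given on the log2(TPM + 1) scale. RNA came from mouse liver at embryonic day 12.5. *Brg1-ECko* embryos carried VE-cadherin-Cre with both *Brg1* alleles and 1 *Chd4* allele floxed, and so had also lost 1 *Chd4* allele wherever Cre was active, while controls were Cre-negative and carried at least 1 floxed allele of both genes. The contrast therefore cannot separate *Brg1* loss from the *Chd4* allele or from Cre itself. VE-cadherin-Cre acts in endothelium and in some blood cells, so that the non-EC fraction is not a Cre-free compartment. The embryos had a mixed genetic background, with both sexes pooled, and the labels do not divide the libraries into batches.

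BRG1, encoded by *Smarca4*, is the ATPase of SWI/SNF (BAF) complexes, which slide and evict nucleosomes. CHD4 is the ATPase of another remodeller, the NuRD complex. LSECs are the fenestrated endothelium of the liver, with scavenger receptors such as STAB2 and LYVE1. The other cells of the liver at this age are mostly developing red cells and other blood cells, with hepatoblasts, which make albumin and alpha-fetoprotein, and stellate cells. In these bulk libraries, fewer cells of a type and less RNA per cell cannot be told apart.

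Endothelial markers matched the labels, but the CD146+ fraction was not endothelial alone. Summed TPM of 26 pan-endothelial genes were 1466 to 3097 in the 6 LSEC libraries and 207 to 313 in the 6 non-EC libraries. None of *Cdh5*, *Pecam1* and *Kdr*, which encode endothelial surface proteins, was at 0 in a non-EC library. Stellate and mesenchymal genes summed to 2121 to 2862 TPM in LSEC libraries, as high as the endothelial list, and to 82.7 to 219 TPM in non-EC libraries, so that RNA of these cells lay mainly in the CD146+ fraction. Myeloid genes were in both, at 925 to 1583 TPM in LSEC and 699 to 1405 TPM in non-EC libraries. LSEC is used here as the name of that fraction. Summed TPM of 30 hepatoblast genes separated the genotypes in non-EC cells, at 22977 to 25444 in controls and 34802 to 51444 in *Brg1-ECko*. LSEC *Brg1-ECko* replicate 1 stood apart, with 38006 summed hepatoblast TPM against 4651 to 9534 in the other 5 LSEC libraries, and it had the lowest endothelial sum of the LSEC libraries. *Eif2s3y*, a gene of the Y chromosome, was at 0.418 to 1.73 TPM in both fractions of *Brg1-ECko* replicates 1 and 2, and at 19.9 to 74.9 TPM in the remaining 8 libraries. Sex therefore moved with genotype in part of the design. Its part in the results, and that of the hepatoblast RNA, cannot be fully told apart from genotype.

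**Figure D1:**
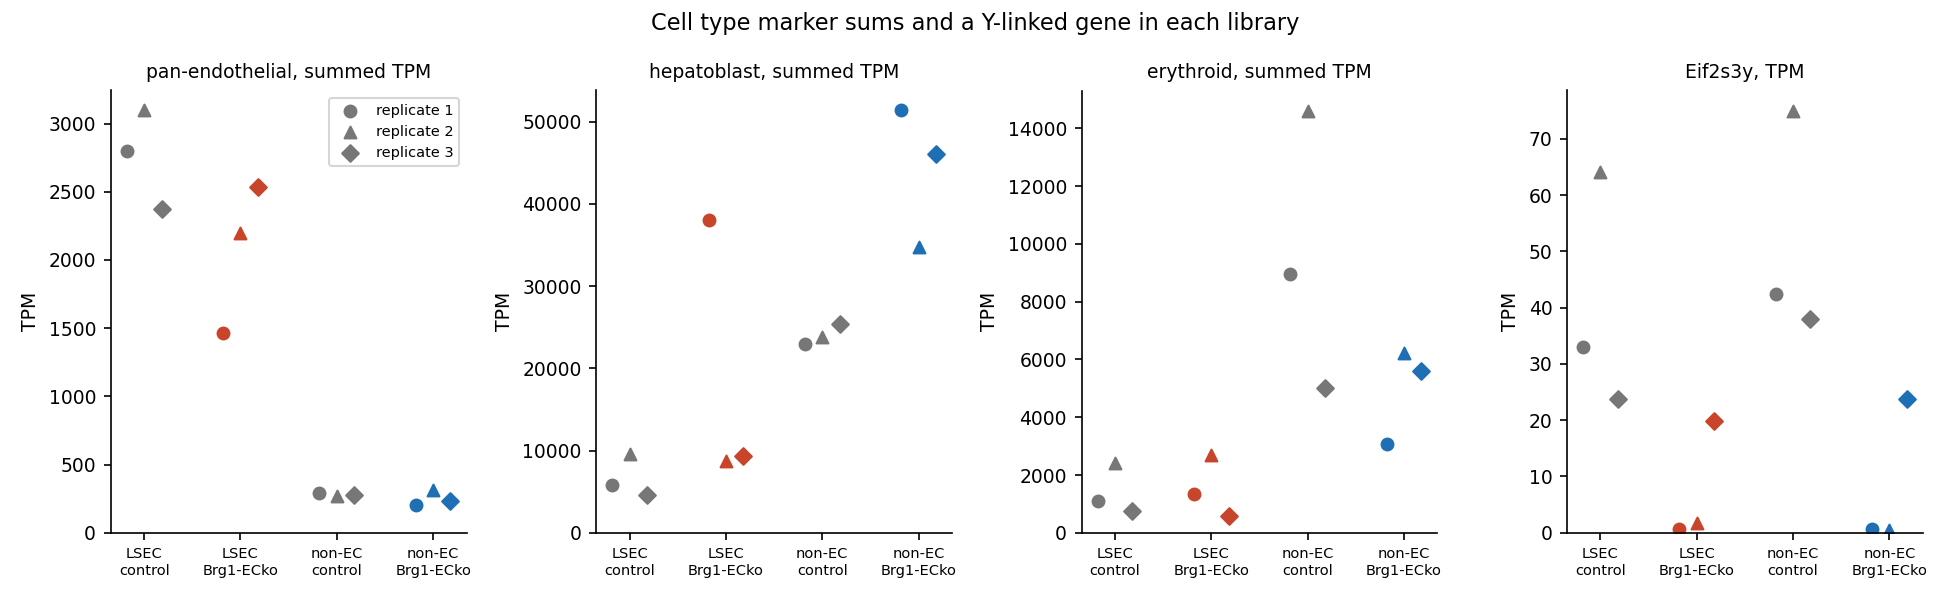
Summed TPM of the pan-endothelial, hepatoblast and erythroid gene lists and TPM of Eif2s3y (vertical axes) in each of the 12 libraries, by fraction and genotype. Marker shapes give the replicate number. LSEC Brg1-ECko replicate 1 has 38006 summed hepatoblast TPM, far above the other 5 LSEC libraries, and Eif2s3y is near 0 in both fractions of Brg1-ECko replicates 1 and 2.

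The targeted gene did not pass the test in either fraction. *Smarca4* had 161, 144 and 134 TPM in control LSECs and 157, 111 and 127 TPM in *Brg1-ECko* LSECs, and 189, 183 and 185 against 189, 165 and 171 TPM in non-EC cells. The means were lower in *Brg1-ECko*, at 132 against 146 TPM in LSECs and 175 against 186 TPM in non-EC cells, but the groups overlapped in both fractions. Its fraction contrast was -0.07 ± 0.17 (log2, SE, adjusted p = 0.847). TPM here cover the whole gene, so they do not show the deleted exons by themselves and check the genotype only weakly. *Chd4* had a fraction contrast of 0.04 ± 0.19 (adjusted p = 0.929), with 262 ± 20.1 TPM in control and 282 ± 64.0 TPM in *Brg1-ECko* LSECs (SD, n = 3). Of 27 tested SWI/SNF subunits, 0 passed the test, and 5 above and 2 below did with the fractions paired by number, a fit that called 8.35% of all genes above and 3.64% below. The 3 with the smallest p were *Phf10* at 0.66, *Brd7* at 0.48 and *Bicral* at 0.90, with adjusted p of 0.0532, 0.0547 and 0.0704 (0.0189, 0.0181 and 0.0269 with pairs).

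The fraction contrast passed the test in 108 genes, which is 0.807% of those tested, with 54 (0.404%) where the LSEC difference lay above the non-EC difference and 54 (0.404%) where it lay below. Of these, 53 (0.396%) had a contrast above 1 in size, 20 above and 33 below. In each of the 108 genes the non-EC difference had the opposite sign to the contrast, as it did in 79.3% of all genes tested, since the contrast subtracts it. The median absolute *Brg1-ECko* difference over the 108 was 0.79 (log2) in non-EC cells and 0.20 in LSECs, compared with 0.22 and 0.16 over all genes. In the non-EC cells alone 104 of the 108 passed the test, where 1595 genes (11.9%) passed, 763 higher (5.7%) and 832 lower (6.22%). In LSECs alone limma called 0 genes, with 1484 at an unadjusted p under 0.05, and the smallest adjusted p was 0.073. The 108 were chosen by the contrast that these signs, counts and medians belong to, so they describe and do not test it. The smallest adjusted p was shared by many genes at 0.0391, and 3028 genes had an unadjusted p under 0.05. The last genes inside the threshold had an adjusted p of 0.0493 and the first outside, *Ap1ar* and *Mfsd14b*, 0.0505.

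**Figure D2:**
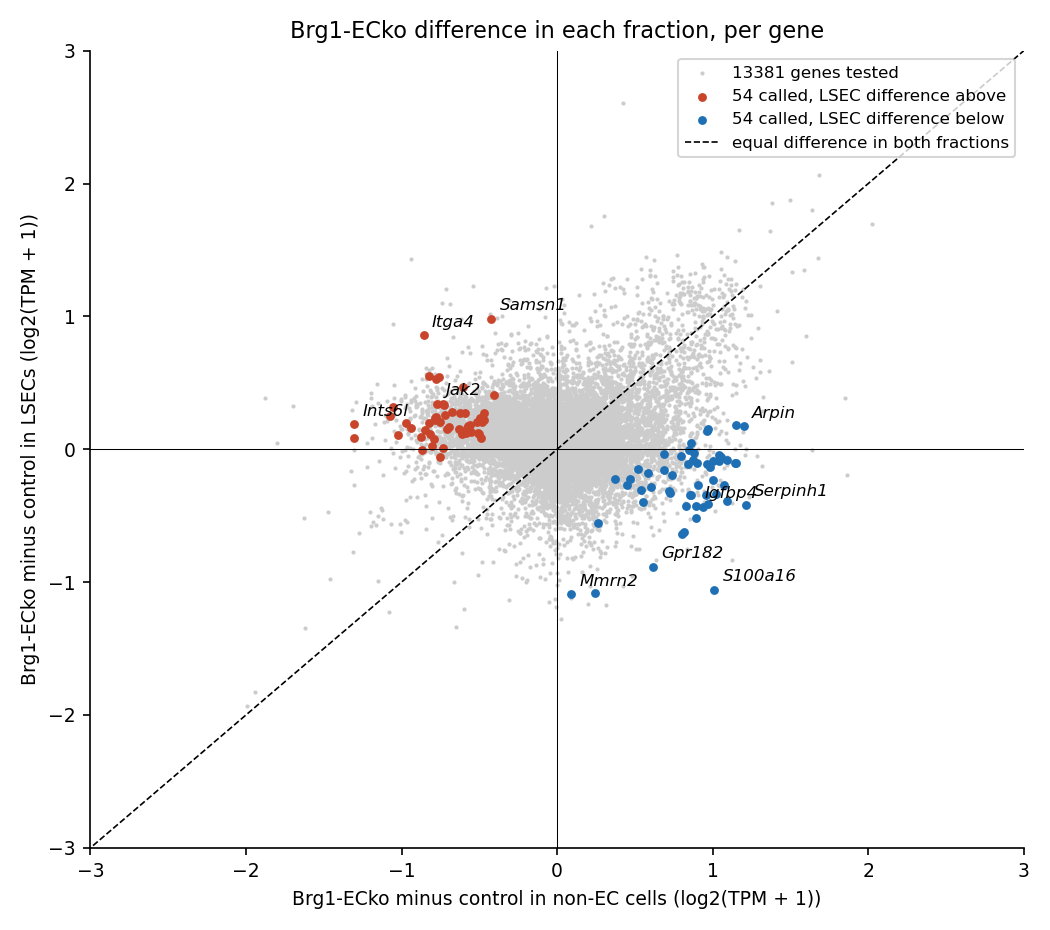
Brg1-ECko minus control difference in non-EC cells (horizontal axis) and in LSECs (vertical axis), both in log2(TPM + 1), for each gene. Grey points are the 13381 genes tested, of which 2 lie outside the plotted range, and the dashed line marks equal differences. The 54 red and 54 blue called genes lie to the left and to the right of 0 on the non-EC axis and mostly near 0 on the LSEC axis.

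The count of called genes depended on the processing, on single libraries and on the pairing. It was 0 with no filter on low values, with mitochondrial genes left out, or with no variance trend. With the LSEC and non-EC libraries of 1 genotype and number treated as a pair (as a random effect, estimated correlation 0.258), 1604 genes passed (12%), 1117 above (8.35%) and 487 below (3.64%), and these held all 108. Leaving out 1 library at a time gave 0 to 694 calls, and 0 in 8 of the 12 fits, with 92 calls and 66 shared genes without LSEC *Brg1-ECko* replicate 1. All 108 genes kept their sign in each of these fits, which their choice by this contrast largely fixes. With *Eif2s3y* as a covariate, an alternative chosen after seeing the data, 0 genes passed for the contrast and 0 for the non-EC difference. The contrasts were then 1.11 for *Jak2* and -1.34 for *Igfbp4* (adjusted p = 0.069 for both). *Eif2s3y* was at similar levels in both fractions of a number, so this covariate largely cancels in the contrast. That these contrasts moved little therefore shows nothing about sex. Pair differences (LSEC minus non-EC of the same number) did not overlap between genotypes in any of the 108, which were chosen by the same values, and in 21.1% of all genes upward and 12.6% downward, so nothing is read from this count.

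Among the genes whose LSEC difference lay above, the smallest p belonged to *Jak2* (ENSMUSG00000024789, GRCm39 chr19:29228677-29290505, plus strand), the kinase that relays erythropoietin and other cytokine signals. It had 47.2, 41.3 and 38.7 TPM in control LSECs, 50.6, 54.1 and 57.1 TPM in *Brg1-ECko* LSECs, 54.1, 44.2 and 56.4 TPM in control non-EC cells and 31.4, 27.2 and 30.4 TPM in *Brg1-ECko* non-EC cells. The genotypes did not overlap in either fraction, and they lay in opposite order. Over all genes tested, *Brg1-ECko* lay wholly above control in 11% and wholly below in 3.59% in LSECs, and in 20.9% and 16.7% in non-EC cells. For *Jak2* the fraction contrast was 1.12 ± 0.16 (log2, SE, adjusted p = 0.0391, and 0.0115 with pairs). *Itga4* (chr2:79085660-79163467, plus strand) encodes the integrin alpha4 chain, which blood progenitors use to bind VCAM1 and fibronectin. Its 11.1, 9.45 and 9.72 TPM in control LSECs stood against 28.3, 16.2 and 15 TPM in *Brg1-ECko* LSECs, and 102, 74.8 and 106 TPM in control non-EC cells stood against 53.7, 45.5 and 53.9 TPM. Its contrast of 1.72 ± 0.29 was the largest of this direction, and the highest *Brg1-ECko* LSEC value was that of replicate 1, the library rich in hepatoblast RNA.

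*Zfp367*, a zinc finger gene, was at 10.8 ± 0.806 TPM in control and 11.8 ± 1.21 TPM in *Brg1-ECko* LSECs, but at 20.8 ± 0.637 and 9.77 ± 1.44 TPM in non-EC cells (SD, n = 3), with a contrast of 1.13 ± 0.18. The difference lay almost wholly in the non-EC cells. *Luc7l3*, a splicing factor gene, had 132 ± 3.26 and 141 ± 2.01 TPM in LSECs and 132 ± 20.4 and 71.5 ± 9.72 TPM in non-EC cells, so that the fractions were level in controls and apart in *Brg1-ECko*. *Ints6l*, which encodes an Integrator-related protein, had a contrast of 1.49 ± 0.26 and fell in the non-EC cells by 1.31 (adjusted p = 0.00586). *Il1rl1*, the receptor for interleukin 33, was low throughout, at 0.540 TPM in control LSECs and 5.29 TPM in control non-EC cells, with a contrast of 1.32 ± 0.21. The translational regulator *Cpeb4* had a contrast of 1.37 ± 0.24. The remaining genes named by the rule in this direction were *Tmx1*, *Eps15*, *Picalm*, *Dr1*, *Azin1*, *Tut7*, *Cep128* and *Prpf18*, with contrasts of 0.69 to 0.95. *Eps15* and *Picalm* act in clathrin-mediated endocytosis, and *Prpf18* in splicing. In all 15 the LSEC difference did not pass the test and the non-EC difference did.

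Promoter windows of RefSeq (GRCm38.p6, 250 bases before to 50 after the start) were read for 2 called genes of each direction. Among the 15 named there, *Jak2* and *Igfbp4* had the smallest p, and *Itga4* and *Serpinh1* the contrast largest in size. Capitals mark matches on either strand to a GATA motif (AGATAA), an ETS motif (CCGGAAG), an AP-1 motif (TGACTCA) or a GC box (GGGCGG), each read 5′ to 3′ on the gene's strand. The windows are at chr19:29251553-29251852 for *Jak2* and chr2:79255176-79255475 for *Itga4*, both on the plus strand, and at chr11:99040994-99041293 for *Igfbp4* (plus strand) and chr7:99353190-99353489 for *Serpinh1* (minus strand).
Jak2: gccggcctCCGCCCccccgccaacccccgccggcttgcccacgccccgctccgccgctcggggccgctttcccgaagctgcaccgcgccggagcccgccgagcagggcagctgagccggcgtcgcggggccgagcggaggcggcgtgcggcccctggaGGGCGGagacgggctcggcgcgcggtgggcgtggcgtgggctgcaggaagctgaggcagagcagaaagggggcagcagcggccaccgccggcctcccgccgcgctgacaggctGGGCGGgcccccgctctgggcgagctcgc
Itga4: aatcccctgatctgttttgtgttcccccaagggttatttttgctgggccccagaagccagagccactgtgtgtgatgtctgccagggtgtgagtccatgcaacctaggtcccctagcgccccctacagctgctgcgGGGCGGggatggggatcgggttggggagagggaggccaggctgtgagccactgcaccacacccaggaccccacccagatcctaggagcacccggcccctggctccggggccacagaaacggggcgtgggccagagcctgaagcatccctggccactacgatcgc
Igfbp4: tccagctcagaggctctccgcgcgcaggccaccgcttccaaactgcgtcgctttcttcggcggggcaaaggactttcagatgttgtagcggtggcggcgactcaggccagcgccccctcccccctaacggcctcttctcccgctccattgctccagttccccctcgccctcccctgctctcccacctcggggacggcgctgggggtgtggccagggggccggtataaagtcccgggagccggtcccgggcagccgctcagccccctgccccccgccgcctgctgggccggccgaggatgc
Serpinh1: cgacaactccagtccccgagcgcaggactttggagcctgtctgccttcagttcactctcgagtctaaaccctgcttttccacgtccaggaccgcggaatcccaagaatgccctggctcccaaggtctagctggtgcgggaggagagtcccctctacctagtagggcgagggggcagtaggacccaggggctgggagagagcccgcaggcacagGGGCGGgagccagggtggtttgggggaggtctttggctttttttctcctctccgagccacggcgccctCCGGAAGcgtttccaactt

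The *Jak2* window holds 3 GC boxes and the *Itga4* window 1, the *Serpinh1* window holds 1 GC box and 1 ETS match, and the *Igfbp4* window holds none of the 4 motifs. Windows were found for 46 of the 54 genes above (54 windows) and 45 of the 54 below (60 windows). A GC box was in 72.2% of the windows of the genes above and 60% of those below, against 61.1% of the 13470 windows of tested genes and 35.7% of all 32851 windows. The ETS motif was in 16.7% and 10%, against 16.3% of tested and 8.86% of all windows. A GATA motif was in 5.56% and 1.67%, against 6.83% and 11.2%, and the AP-1 motif in 0 of 54 and 1.67%, against 3.59% and 5.2%. These are matches of letters and not sites. The GC box and ETS shares of the called genes lay closer to those of tested genes than to those of all windows, apart from the ETS share of the genes below.

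Among the genes whose LSEC difference lay below, the smallest p belonged to *Igfbp4* (ENSMUSG00000017493, chr11:98932064-98945218, plus strand), a secreted binding protein of insulin-like growth factors. Its values were 866, 887 and 764 TPM in control LSECs, 562, 632 and 674 TPM in *Brg1-ECko* LSECs, 160, 131 and 162 TPM in control non-EC cells and 326, 238 and 283 TPM in *Brg1-ECko* non-EC cells. The genotypes did not overlap in either fraction, with opposite order, and the contrast was -1.33 ± 0.18 (log2, SE, adjusted p = 0.0391, and 0.0115 with pairs). *Serpinh1* (chr7:98994220-99005076, minus strand) encodes the collagen chaperone HSP47. It had 1251, 1218 and 1178 TPM in control LSECs and 666, 1041 and 1086 TPM in *Brg1-ECko* LSECs, and it rose from 66.0, 43.0 and 55.0 TPM to 138, 115 and 126 TPM in non-EC cells. The contrast was -1.63 ± 0.26, with the lowest LSEC value in replicate 1. *Arpin*, an inhibitor of the Arp2/3 complex, was at 34.0, 37.0 and 35.0 TPM against 33.8, 44.1 and 42.8 TPM in LSECs, and at 7.38, 8.09 and 8.10 TPM against 19.2, 21.1 and 17.8 TPM in non-EC cells. Here the LSEC groups overlapped, and the whole contrast of -1.03 ± 0.17 came from the non-EC rise of 1.20 (adjusted p = 0.00237).

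*Hes1*, a target of Notch signalling, had the same pattern. It was at 36.0 ± 2.39 and 35.3 ± 0.692 TPM in LSECs and at 11.6 ± 0.919 and 22.3 ± 2.77 TPM in non-EC cells (SD, n = 3), with a contrast of -0.91 ± 0.16. *Ptms*, which encodes parathymosin, and *Ifitm2*, of the interferon-induced transmembrane family, had contrasts of -0.97 ± 0.17 and -0.85 ± 0.12, and their reads may be shared with close relatives. *Dbn1*, the actin-binding drebrin gene, was at 247 ± 7.67 against 174 ± 31.0 TPM in LSECs and 12.0 ± 2.67 against 22.8 ± 1.5 TPM in non-EC cells. Its contrast was -1.41 ± 0.22. The scaffold gene *Nherf2* (-1.44 ± 0.23), *Rcn3* (-1.25 ± 0.21), *Laptm4b* (-1.30 ± 0.22), *Pald1* (-1.11 ± 0.19), *Cmtm8* (-1.26 ± 0.21), *Tubb6* (-1.09 ± 0.18) and the linker histone gene *H1f10* (-1.26 ± 0.22) completed the list. In this direction too, 0 of the 15 passed the test in LSECs and 15 of 15 did in non-EC cells, of which *Gpr182*, at an adjusted p of 0.0487, did not with pairs (0.0595).

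**Figure D3:**
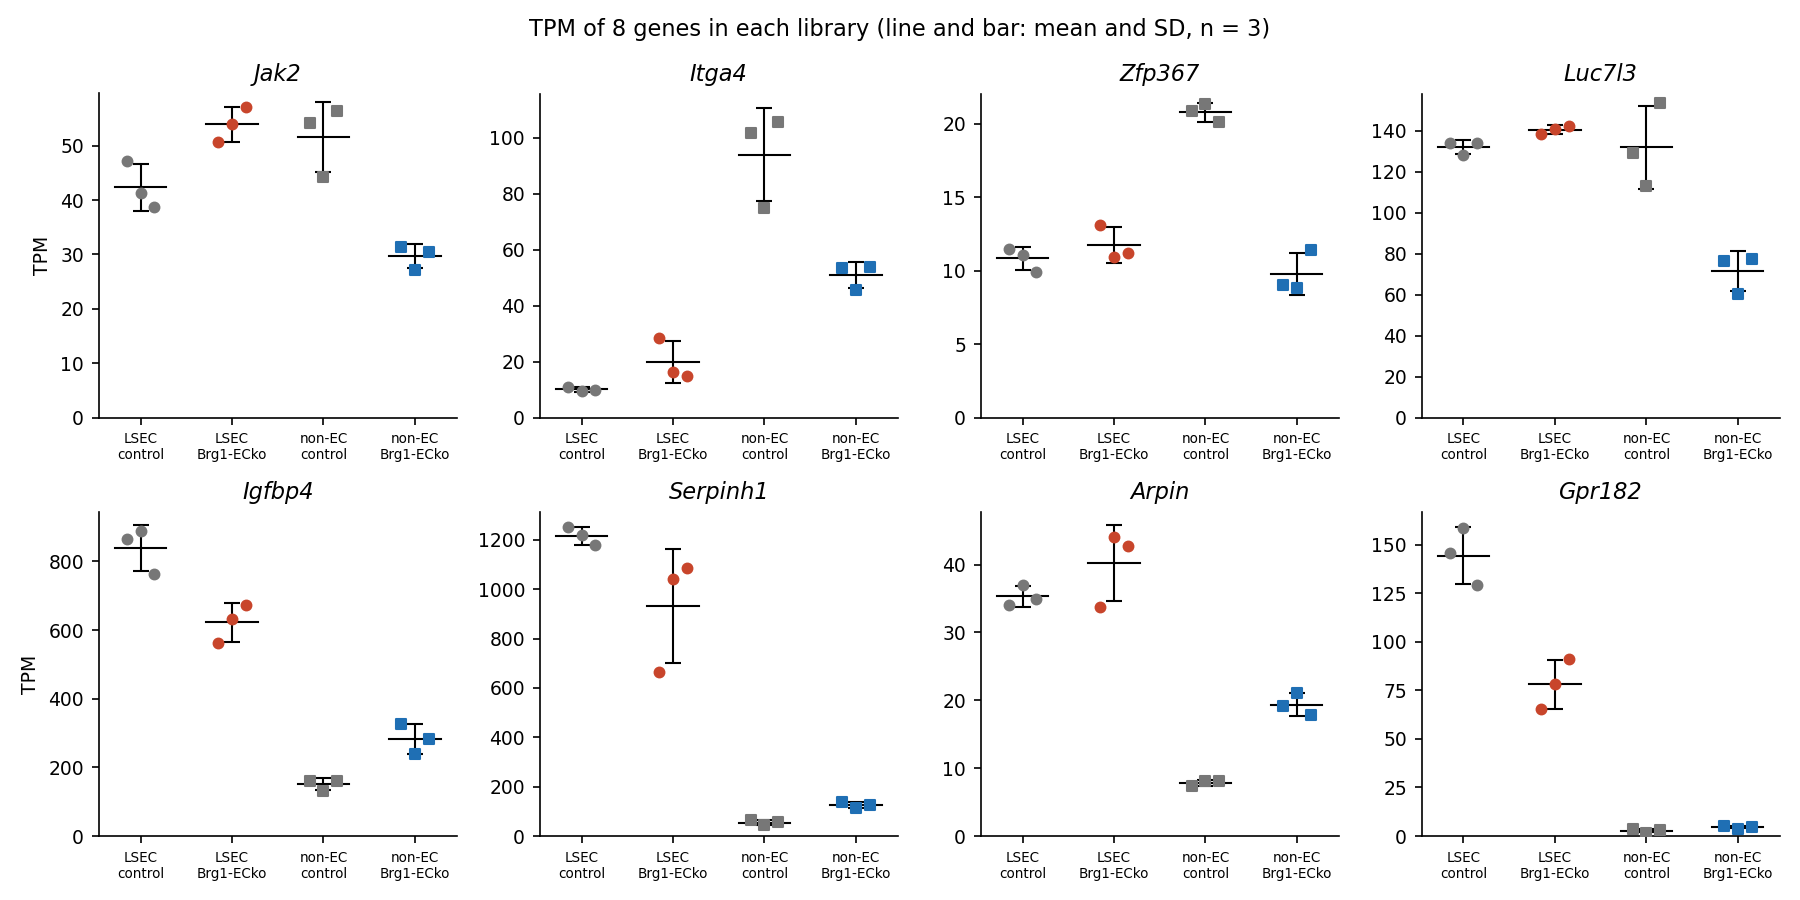
TPM of 8 genes (vertical axes, from 0) in each library, by fraction and genotype, with the mean and SD of 3 libraries. In the upper row (Jak2, Itga4, Zfp367, Luc7l3) the non-EC values are lower in Brg1-ECko, and in the lower row (Igfbp4, Serpinh1, Arpin, Gpr182) they are higher, while the LSEC values move less or the other way.

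In 8 of the 108 genes the LSEC difference was the larger of the 2, and these were picked out after their values were seen. They were *Itga4*, *Samsn1* and *Stxbp5* above, and *Gpr182*, *Mmrn2*, *Mecom*, *S100a16* and *Degs1* below. The sizes were nearly equal in *Itga4* (0.858 in LSECs and -0.858 in non-EC cells), *Stxbp5* (0.411 and -0.406) and *S100a16* (-1.06 and 1.01). In *Itga4*, *Stxbp5* and *S100a16* the non-EC difference passed the test (adjusted p = 0.025, 0.0402 and 0.0294) and the LSEC difference did not. *Gpr182*, which encodes a chemokine-scavenging receptor of sinusoidal endothelium, had 145, 158 and 129 TPM in control and 65.6, 78.1 and 90.9 TPM in *Brg1-ECko* LSECs, a difference of -0.88 ± 0.18 (SE, adjusted p = 0.212), which did not pass the test. Its contrast was -1.50 ± 0.26. *Mmrn2*, an endothelial matrix glycoprotein, had 86.8, 106 and 76.6 TPM in control and 35.7, 38.2 and 51.5 TPM in *Brg1-ECko* LSECs and at most 0.209 TPM in each non-EC library, so that its contrast restates the LSEC difference. With a pseudocount of 0.1 TPM the contrast no longer passed (adjusted p = 0.0659). The LSEC groups did not overlap, and its LSEC difference was -1.09 ± 0.17 (adjusted p = 0.073). *Mecom*, a transcription factor gene, was at 14.7 ± 2.45 against 6.49 ± 1.67 TPM in LSECs (difference -1.08, adjusted p = 0.106). *S100a16*, a calcium-binding protein gene, was at 91.7 ± 20.1 against 44.6 ± 14.5 TPM in LSECs and had the largest contrast of all 108, -2.07 ± 0.36. *Samsn1*, a leukocyte adaptor, lay the other way, at 5.79 ± 0.795 against 12.7 ± 4.02 TPM in LSECs (difference 0.98, adjusted p = 0.164), where again replicate 1 was highest, at 17.4 TPM.

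Other called genes, picked out after their values were seen, were *Acvrl1*, the endothelial ALK1 receptor of BMP9 and BMP10, with a contrast of -1.44, the ephrin receptor gene *Ephb4* with -1.35, and *Mbnl1*, a splicing regulator, with 1.37. These are single genes and stand for no group. In 12 libraries not used by the contrast, those of *Chd4-ECko* and *Brg1/Chd4-ECdko* embryos, 53 of the 54 genes below were higher in LSECs than in non-EC cells, against 20 of the 54 above and 6804 of 13381 genes (50.8%). Their median level difference (LSEC minus non-EC, log2) was 1.34 below and -0.18 above.

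Over 19 gene lists, those of red cells and of endothelium lay furthest apart. Erythroid genes had a median contrast of 0.75, with 26 of 27 positive and 0 called, against 0.06 over all genes tested, and the median was 0.50 to 1.40 with 1 library left out. The list's median LSEC minus non-EC level had an SD of 0.80 between pairs of 1 genotype, above this contrast. Pair differences lay wholly above those of control in 21.1% of all genes and in 4 of the 27 erythroid genes. Their median difference was 0.23 in LSECs and -0.76 in non-EC cells. There 1 of 27 was called lower, against 6.22% of all genes. It was *Tfrc*, the transferrin receptor gene. Its contrast had an adjusted p of 0.051 (0.0155 with pairs). *Tfrc* was at 491, 527 and 442 TPM in control and 221, 186 and 250 TPM in *Brg1-ECko* non-EC cells, and at 65.0 ± 12.9 and 95.5 ± 39.6 TPM in LSECs. The summed erythroid TPM of the non-EC libraries overlapped between genotypes, at 5025 to 14613 and 3089 to 6218. Cell cycle genes had a median contrast of 0.18, with 21 of 26 positive and 0 called (6 above and 1 below with pairs, where all genes were called at 8.35% and 3.64%), and *Mki67*, the proliferation marker, had 1.31 ± 0.38 (adjusted p = 0.0786, and 0.0225 with pairs). The list's median was 0.085 to 0.29 with 1 library left out.

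Endothelial lists lay on the other side. The pan-endothelial list had a median contrast of -0.72, with 23 of 26 negative and 1 called, *Mmrn2* (7 with pairs), and the sinusoidal list -0.46, with 18 of 20 negative and 0 called (4 with pairs), where all genes were called below at 0.404% (3.64% with pairs). With 1 library left out these medians were -0.86 to -0.50 and -0.69 to -0.27, and the pan-endothelial median was -0.32 with array quality weights. In LSECs 25 of 26 and 19 of 20 were lower in *Brg1-ECko*, by medians of -0.46 and -0.40, with 0 called in either list. *Cldn5*, a tight junction gene, had a contrast of -1.46 ± 0.31 (adjusted p = 0.0512, and 0.0166 with pairs). Its non-EC levels were 0 to 0.586 TPM, and the contrast was -2.65 with a pseudocount of 0.1 TPM. *Lyve1* had 573, 630 and 432 TPM in control and 230, 334 and 359 TPM in *Brg1-ECko* LSECs, without overlap. Its LSEC difference was -0.83, and in non-EC cells, at 0.415 to 5.89 TPM with overlap, it was higher in *Brg1-ECko* by 1.13. The *Lyve1* contrast was -1.96 ± 0.47 (adjusted p = 0.0555, and 0.0183 with pairs). It was -2.52 with a pseudocount of 0.1 TPM (adjusted p = 0.0724). Of the *VEGF*, angiopoietin and Notch genes 24 of 30 were negative, with a median of -0.43 and 2 called, *Hes1* and *Ephb4* (5 with pairs), and the median was -0.15 with array quality weights. Wnt pathway genes had a median of -0.20, with 0 called and *Tcf7l1* leading at -1.14 ± 0.27 (adjusted p = 0.0547, and 0.0166 with pairs). The Wnt median was -0.27 to -0.069 with 1 library left out. The summed endothelial TPM of LSECs overlapped between genotypes, at 2377 to 3097 in controls and 1466 to 2537 in *Brg1-ECko*. Its part in these lists was not tested.

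Basement membrane and matrix genes had a median contrast of -0.56, with 25 of 26 negative and 1 called, *Mmp14*, a membrane-bound matrix protease (8 with pairs), where all genes were called below at 0.404% (3.64% with pairs). Their movement was in the non-EC cells, where 10 of 26 passed the test upward, against 5.7% of all genes, with a median of 0.54, against -0.04 in LSECs. The collagen gene *Col4a2* had a contrast of -1.22 ± 0.29 (adjusted p = 0.0547, and 0.0173 with pairs). Stellate and mesenchymal genes, which overlap with matrix genes in what they make, had a median contrast of -0.39, with 19 of 23 negative and 0 called, and -0.49 to -0.14 with 1 library left out. Their summed TPM were 2232 to 2723 in control and 2121 to 2862 in *Brg1-ECko* LSECs, and 82.7 to 152 and 142 to 219 in non-EC cells, and the part of these cells in the matrix genes was not tested. Plasminogen system genes had a median of -0.18 (-0.33 to -0.0595 with 1 library left out) and 0 called (1 below with pairs), led by *Anxa2* at -1.23 ± 0.30 (adjusted p = 0.0563, and 0.0237 with pairs). NFkB response and adhesion genes had -0.22 with 0 called (3 below with pairs, against 3.64% of all genes). In non-EC cells 16 of 17 were higher in *Brg1-ECko*, and 5 of 17 passed the test upward, against 5.7% of all genes. Their median contrast was -0.37 to -0.097 with 1 library left out and -0.012 with array quality weights.

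Hepatoblast genes were higher in *Brg1-ECko* in both fractions, by an amount that depended in LSECs on 1 library. Their medians were 1.15 in LSECs and 0.94 in non-EC cells, with 30 of 30 and 29 of 30 higher in *Brg1-ECko*, 0 and 3 called, where 5.7% of all genes were called higher in non-EC cells, and a median contrast of 0.20. *Afp*, alpha-fetoprotein, had 12314 TPM in LSEC replicate 1 against 2537 and 2749 TPM in the other *Brg1-ECko* LSEC libraries. Without that library the median contrast of the list was -0.47 and the LSEC median 0.46, with 30 of 30 still higher, and the summed hepatoblast TPM of the other 2, 8721 and 9313, lay inside the control range of 4651 to 9534. Interferon-stimulated genes had 24 of 27 higher in LSECs and 21 of 27 in non-EC cells, with medians of 0.49 and 0.33 and a contrast of 0.21 with 0 called (3 above and 1 below with pairs, against 8.35% and 3.64% of all genes). That contrast was 0.088 to 0.33 with 1 library left out and 0.026 over genes with a mean of at least 5 TPM. *Irf9*, a transcription factor of the interferon response, was at 9.75, 8.77 and 10.2 TPM in control and 22.3, 19.3 and 16.6 TPM in *Brg1-ECko* LSECs (difference 0.94, adjusted p = 0.073), with a contrast of 0.58 ± 0.19 (adjusted p = 0.0992, and 0.039 with pairs). The 13 mitochondrially encoded genes had median differences of -0.18 in LSECs and -0.70 in non-EC cells, with a median contrast of 0.52 and 0 called, and took 6.17% to 7.69% of control and 3.04% to 5.51% of *Brg1-ECko* non-EC TPM. Myeloid genes had a median contrast of 0.28 (0.042 to 0.64 with 1 library left out), with 18 of 28 positive, 10 negative and 0 called. In LSECs 25 of 28 were higher in *Brg1-ECko*, with a median of 0.39 and 0 called. In non-EC cells 17 of 28 were higher, with a median of 0.08. The part of myeloid cells in the called leukocyte gene *Samsn1* was not tested. *Ptprc*, a leukocyte surface phosphatase gene, had a contrast of 1.34 ± 0.42 (adjusted p = 0.0943, and 0.0312 with pairs). The megakaryocyte (-0.06), immediate-early (-0.16), ATF4 (0.16) and p53 (0.15) lists each had 0 called. With pairs the p53 list had 1 above and 2 below and the immediate-early list 1 below. With 1 library left out the medians were -0.54 to 0.36 (megakaryocyte), -0.28 to -0.091 (immediate-early), 0.071 to 0.23 (ATF4) and 0.056 to 0.24 (p53).

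**Figure D4:**
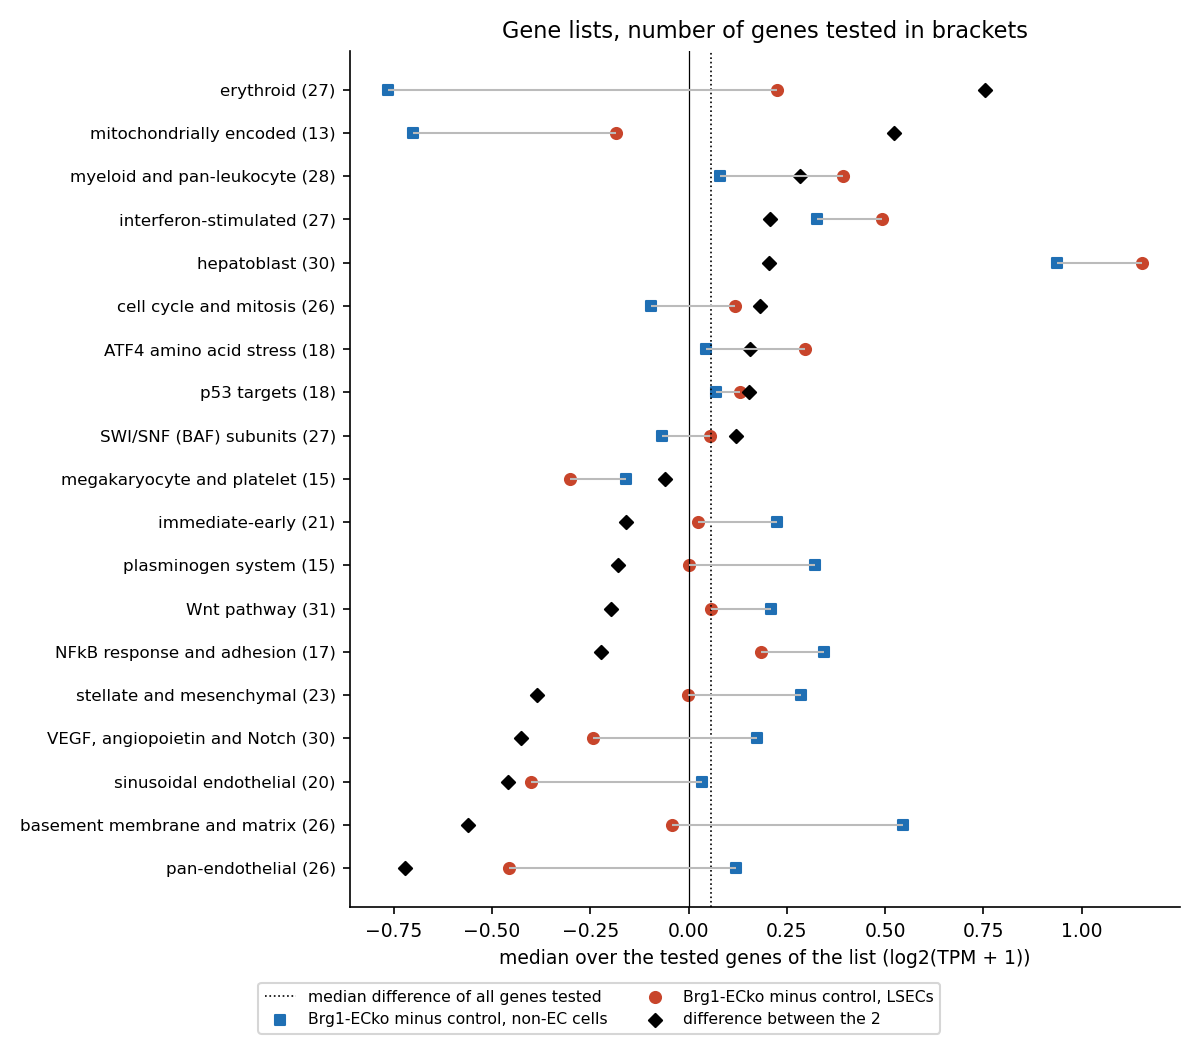
Median Brg1-ECko minus control difference in non-EC cells (squares) and in LSECs (circles), and the median fraction contrast (diamonds), in log2(TPM + 1), for 19 gene lists with the number of genes tested in brackets. The erythroid list is at the top with 0.75 and the pan-endothelial list at the bottom with -0.72, while the hepatoblast list has medians of 1.15 in LSECs and 0.94 in non-EC cells, the first of which is 0.46 without LSEC Brg1-ECko replicate 1.

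The same kind of contrast could be formed in 12 other libraries, *Brg1/Chd4-ECdko* against *Chd4-ECko*, in which both groups carry Cre and have both *Chd4* alleles floxed. *Chd4-ECko* embryos also had 1 floxed *Brg1* allele, so this contrast is about the remaining *Brg1* allele and differs from the first, whose controls lack Cre. It shares no library with the first, and it was added after seeing the data. It called 1 gene (0.00747%), which is not among the 108, with 703 at an unadjusted p under 0.05. Of the 54 genes above only 1, *Dck*, had the same sign there, and of the 54 below 16 did, while 58.3% of all genes had a positive value. The median contrast there was -0.38 for the genes above and 0.18 for the genes below, the reverse of the first contrast. Their non-EC difference had turned, at a median of 0.56 above and -0.14 below, where it had been -0.72 and 0.88. *Itga4* had -0.82 there against 1.72, and *Luc7l3* -0.84 against 0.96. Of the 8 genes with the larger LSEC difference, 4 had the same sign as in the first contrast and 4 did not. *Gpr182* had -0.44, *Mmrn2* -0.56, *Mecom* -0.75 and *Degs1* -0.35, in the direction of the first contrast, while *Itga4* (-0.82), *Samsn1* (-0.70), *Stxbp5* (-0.10) and *S100a16* (0.14) lay against it, and *Mmrn2* was lower in the *Brg1/Chd4-ECdko* LSECs by 0.66. None of these passed the test (adjusted p from 0.85 to 0.93).

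**Figure D5:**
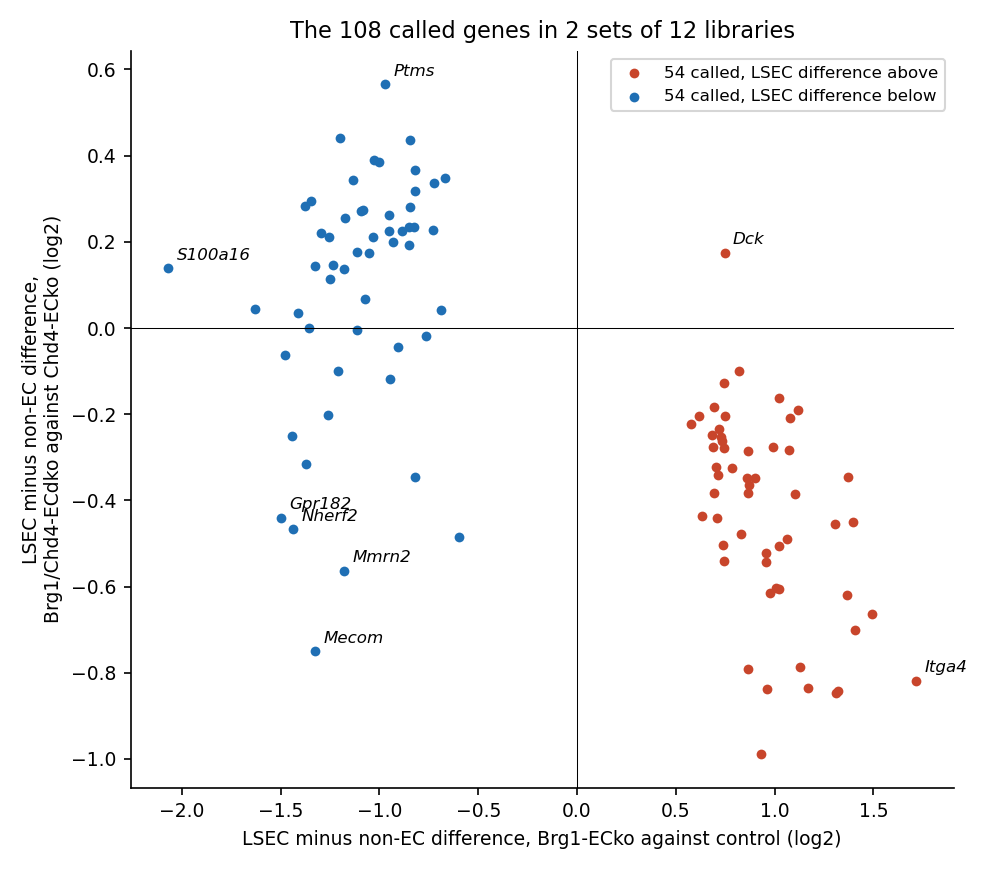
Fraction contrast of the 108 called genes for Brg1-ECko against control (horizontal axis) and for Brg1/Chd4-ECdko against Chd4-ECko in 12 other libraries (vertical axis), both in log2(TPM + 1). Of the 54 red genes only Dck lies above 0 on the vertical axis, and Mecom, Mmrn2, Nherf2 and Gpr182 are blue genes that lie below 0 on both axes.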

How the data were processed

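RNA of 12 libraries of mouse E12.5 liver was used, 3 of each fraction and genotype. The authors digested livers with transcription inhibitors, selected CD146+ cells, extracted total RNA and had it sequenced. They removed runs of guanine from the reads, mapped these to GRCm39 with CLC Genomics Workbench (version not given in the sources used here) and deposited TPM per gene. TPM sum to the same total in each library, so the depth of each library is unknown, although the methods state a common target, and no counting interval can be given. Deposited columns of group means were not used, and columns of samples outside the series numbered 0. Gene positions come from the GENCODE annotation of GRCm39 by identifier.

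Values were log2 transformed after adding 1 TPM. The fit used R 4.3.3 and limma 3.58.1, with a mean per group, a variance trend and genes of at least 1 TPM in at least 3 libraries. Fold changes on this scale understate those of low genes. P-values are two-sided, moderated and Benjamini-Hochberg adjusted over all 13381 genes, with calls at 0.05. Replicates are embryos by the paper's legends, and nothing in the labels names litters. The pairing was checked from the replicate numbers of the labels: deviations from group means correlated at 0.131 to 0.424 between LSEC and non-EC libraries of 1 genotype and number, in all 6 pairs, and at -0.0127 to 0.236 between genotypes. By this measure the numbers pair fractions, and pair genotypes less closely if at all. The labels do not say that libraries of 1 number share an embryo, so the pairing is inferred from these correlations and from matching *Eif2s3y* levels.

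The genes and lists were chosen with earlier results of these data known. Named were up to 15 called genes with the smallest p in each direction, *Smarca4* and *Chd4*, and the 3 tested members with the smallest p of each of 19 lists, with the first 3 markers of cell type lists. In simulated data of 13381 genes for this contrast, 47% of 100 genes changed by 1 (log2) and 90% of 100 changed by 2 were recovered, with 4 other calls, and 0 calls where no gene changed. The simulated noise was independent between libraries, without pairs or shifts shared by many genes. Changes were placed only in *Brg1-ECko* LSECs and in better expressed genes. These figures therefore do not give the rate of false calls in the real libraries. Alternatives were another pseudocount (0.1 TPM), filters, quantile normalization, values without mitochondrial genes, no variance trend, array weights, replicate blocks, a model of 24 libraries, a fold threshold and each library left out. Added after seeing the data were within-pair differences, *Eif2s3y* as a covariate, leaving out pair 1 of *Brg1-ECko*, the 12 other libraries, the hepatoblast LSEC median without 1 library, and motif shares among tested genes. Figures were drawn in python 3.11.15 (matplotlib 3.10.9).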

Additional observations from a re-analysis of the deposited data

Results flagged for a closer look

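In 108 genes the *Brg1-ECko* difference in LSECs differed from that in non-EC cells by the test of the difference itself (limma, adjusted p under 0.05). The fraction contrasts (log2) of the genes above were 1.12 for *Jak2*, 0.73 for *Tmx1*, 0.69 for *Eps15*, 0.86 for *Picalm*, 1.13 for *Zfp367*, 1.32 for *Il1rl1*, 0.75 for *Dr1*, 0.90 for *Azin1*, 1.49 for *Ints6l*, 1.72 for *Itga4*, 0.73 for *Tut7*, 0.95 for *Cep128*, 0.71 for *Prpf18*, 0.96 for *Luc7l3* and 1.37 for *Cpeb4*. Those of the genes below were -1.33 for *Igfbp4*, -0.85 for *Ifitm2*, -1.41 for *Dbn1*, -1.63 for *Serpinh1*, -1.44 for *Nherf2*, -1.03 for *Arpin*, -1.25 for *Rcn3*, -1.30 for *Laptm4b*, -1.11 for *Pald1*, -1.26 for *Cmtm8*, -1.09 for *Tubb6*, -1.50 for *Gpr182*, -0.91 for *Hes1*, -0.97 for *Ptms* and -1.26 for *H1f10*. Groups of 3 libraries are too small for a test of single outlying libraries.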

How the results depend on the processing

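The directions of the 30 called genes named by the rule were the same in each of the 26 alternatives that tested them, with 336 values that also stayed past the threshold, 443 that did not and 0 reversed, and all 108 called genes kept their sign wherever they were tested (105 of them with a mean of at least 5 TPM). Both were chosen by this contrast, which largely fixes the sign. The count of calls depended on the processing, and the cause was not tested. Counts of the contrast below are followed by those above and below. They were 415 (271 and 144) for genes with a mean of at least 5 TPM, 236 (99 and 137) with quantile normalization, 2234 (1646 and 588) with array quality weights and 53 (20 and 33) with a difference above 1 in size. The model of all 24 libraries called 22 above and 128 below. No filter on low values, values without mitochondrial genes, no variance trend, *Eif2s3y* as a covariate and leaving out both fractions of pair 1 of *Brg1-ECko* each gave 0 (0 and 0), with 2814 to 3311 genes at an unadjusted p under 0.05. Leaving out 1 library at a time gave 0 to 694 (0 to 572 and 0 to 122), the highest without non-EC control replicate 2. It gave 92 without LSEC *Brg1-ECko* replicate 1, 208 without LSEC *Brg1-ECko* replicate 3, 2 without non-EC *Brg1-ECko* replicate 2 and 0 in the other 8 fits.

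In LSECs alone calls numbered 3 without the filter, 6 with quantile normalization, 5 with array weights, 19 in the model of all 24 libraries, 1 without pair 1 of *Brg1-ECko* and 0 to 8 with 1 library left out. In non-EC cells alone they numbered 6096 with array weights, 2549 with the replicate block, 1059 in the model of all 24 libraries, 125 with a difference above 1 in size, 0 with the *Eif2s3y* covariate and 399 to 2828 with 1 library left out, the lowest without non-EC control replicate 3.

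For the pairing, the embryo replicate block as a random effect gave 1604 calls (1117 and 487), differences within pairs 1123 (837 and 286), and the replicate number as a fixed block 1416 (1082 and 334). Each of the 3 fits held all 108. Deviations of same-numbered libraries of different genotypes correlated at -0.0127 to 0.236. Whether these libraries share more than a number is not known, so the last block rests on the number alone.

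Median contrasts of gene lists moved to -0.32 (pan-endothelial), -0.012 (NFkB) and -0.15 (VEGF, angiopoietin and Notch) with array weights, and to -0.13 (NFkB) without the filter. With 1 library left out they ranged from -0.37 to -0.10 (NFkB), -0.58 to -0.21 (VEGF, angiopoietin and Notch), 0.22 to 0.70 (mitochondrial), 0.042 to 0.64 (myeloid) and -0.33 to -0.0595 (plasminogen). Single genes that turned their sign had not passed the test. With array weights they were *Chd4* (-0.032), *Pecam1* (0.50), *Alb* (-0.016), *Ttr* (-0.45), *Hbb-bt* (-0.041), *Itga2b* (0.054) and *Pdgfrb* (0.13). *Afp* was at -0.057 with quantile normalization, and *Pf4* at 0.038 with the *Eif2s3y* covariate. Without pair 1 of *Brg1-ECko* they were *Chd4* (-0.075), *Pecam1* (0.11), *Afp* (-0.064), *Alb* (-0.089), *Ttr* (-0.48) and *Pdgfrb* (0.027). With 1 library left out the ranges were -0.21 to 0.92 for *Afp*, -0.21 to 0.99 for *Alb*, -0.49 to 0.45 for *Ttr*, -0.13 to 0.19 for *Chd4*, -0.21 to 0.043 for *Smarca4*, -0.64 to 0.29 for *Gp1ba*, -0.65 to 0.22 for *Pf4*, -0.45 to 0.13 for *Itga2b*, -0.24 to 1.17 for *Hbb-bs*, -0.054 to 1.57 for *Hbb-bt*, -0.16 to 0.13 for *Pdgfrb* and -0.24 to 0.14 for *Pecam1*.

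TPM hold no depth, so the precision of low genes is unknown, and 3 libraries per group limit the power. Hepatoblast RNA in non-EC cells, *Eif2s3y* in part, and the Cre and *Chd4* alleles moved with genotype in these libraries.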
